A study of Mus musculus with 8 samples.

Results

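The interferon-stimulated genes described here are 37 mouse genes that cells are known to switch on when type I or type II interferon binds its receptor. They were taken as a named list, by matching gene identifiers to symbols, out of 56980 genes counted by RNA-seq in regulatory T cells (Tregs) of peripheral blood. The libraries came from male C57BL/6j mice, bought at 8 weeks of age and thus older when sorted, with 4 libraries from the HADA group and 4 from the control group. HADA, high-altitude de-acclimatization, stands for mice housed for 28 days in a low-pressure chamber set to an altitude of 6000 m and then returned to normal oxygen, and control mice stayed in normal oxygen throughout. The Tregs were flow-sorted, which the methods describe for a co-culture assay as CD4+CD25+ cells, and the few cells obtained were amplified with a low-input cDNA kit. On which day after the chamber the Tregs for RNA-seq were sorted, whether animals were pooled, and whether the libraries came from separate animals is not given in the sources used here, so that p-values measure only the spread between libraries.

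Interferons are cytokines that cells release on sensing viral nucleic acid and that T cells and NK cells release during immune responses. Their receptors signal through JAK kinases to STAT transcription factors. A complex that holds STAT2 and IRF9 binds the interferon-stimulated response element (ISRE), and STAT dimers bind the gamma-activated sequence (GAS). In Tregs, interferon signalling is known to affect their expansion and their suppressive function. Of the 37 genes, 4 encode factors of this pathway, 3 are IFIT proteins that bind viral RNA, 3 belong to the oligoadenylate synthetase family, 2 form the ISG15 system, 3 are nucleic acid sensors, 4 are restriction factors that act at membranes, 4 are other antiviral effectors, 7 are interferon-induced GTPases and 7 have other roles.

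The 250 bases before the annotated start of the canonical transcript are printed for 4 genes, since these genes differ in level between the groups or between libraries, and since they differ in which interferon elements they carry. They were read from the GRCm39 genome, the build of the deposited counts, 5′ to 3′ on the strand of the gene. The windows lie at chr7:140547698-140547947 on the plus strand for Ifitm1, and on the minus strand at chr7:104114408-104114657 for Trim30a, chr4:156285304-156285553 for Isg15 and chr8:71990115-71990364 for Bst2. Capitals mark every match to the ISRE letters GAAANNGAAA or the GAS letters TTCNNNGAA on either strand.
Ifitm1: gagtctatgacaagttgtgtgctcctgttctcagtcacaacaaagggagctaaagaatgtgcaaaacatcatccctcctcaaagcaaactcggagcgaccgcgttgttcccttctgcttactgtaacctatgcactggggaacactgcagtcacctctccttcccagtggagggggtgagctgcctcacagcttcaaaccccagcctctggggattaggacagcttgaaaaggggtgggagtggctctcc
Trim30a: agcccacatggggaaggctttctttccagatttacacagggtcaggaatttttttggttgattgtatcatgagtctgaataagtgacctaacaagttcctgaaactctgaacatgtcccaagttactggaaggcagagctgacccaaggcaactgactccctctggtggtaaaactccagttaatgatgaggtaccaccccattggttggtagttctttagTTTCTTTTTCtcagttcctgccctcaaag
Isg15: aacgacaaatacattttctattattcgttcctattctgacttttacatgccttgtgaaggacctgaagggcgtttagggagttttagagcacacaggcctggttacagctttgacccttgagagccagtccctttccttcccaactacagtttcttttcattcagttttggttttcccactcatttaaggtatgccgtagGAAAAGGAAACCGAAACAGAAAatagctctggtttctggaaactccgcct
Bst2: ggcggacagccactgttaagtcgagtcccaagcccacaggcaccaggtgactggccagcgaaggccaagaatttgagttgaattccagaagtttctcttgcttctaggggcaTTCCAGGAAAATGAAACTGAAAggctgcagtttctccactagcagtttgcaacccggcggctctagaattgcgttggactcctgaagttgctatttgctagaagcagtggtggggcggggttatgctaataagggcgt
The Isg15 window held 3 ISRE matches that overlap each other, the first starting 50 bases before the start site. In the Bst2 window a GAS match 138 bases before the start runs into 2 overlapping ISRE matches. The match in Trim30a, 29 bases before the start, lies on the opposite strand, and Ifitm1 held neither set of letters here. The Ifitm1 window lies inside the counted span of the gene, which begins at chr7:140547134. Bases before that position were not searched. Searching 300 bases, from 250 before to 50 after the start, the ISRE letters were present in 17 of the 37 genes (45.9%), against 829 of 21631 protein-coding promoters (3.83%). The GAS letters were present in 9 of the 37 (24.3%), against 1914 (8.85%) of all. Parp14, whose window also held no match, is not printed because annotated exons cover the 250 bases. The Ifi27l2a window held neither set of letters and is not printed either. A match is a description of letters and was not tested as a binding site.

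Of the 37 genes, 33 had counts in at least 1 library, and 32 passed the filter on low counts and were tested. The authors counted reads over whole gene spans, introns included, and reads where spans of genes overlap were not assigned, so that all 1077 of 1077 protein-coding genes whose span lies wholly under other genes are listed at 0. This applies to the 4 interferon-stimulated genes at 0 in every library. Ifitm2, which blocks virus entry at membranes, is covered over 95.7% of its span by Gm45717. Ifitm3, from the same cluster on chromosome 7, is covered over 100% of its span by the long noncoding RNA Gm57251 on the opposite strand. Gbp4, a guanylate-binding GTPase, lies for 99.8% of its span under Gbp8 and Gbp9, and Igtp, a GTPase that defends against intracellular parasites, for 99.2% under Irgm2. A level of these 4 genes cannot be read from the counts, and their zeros give no upper limit. Irgm2, which kept its own counts outside the overlap, had 68.4, 3.32, 10.2 and 9.85 CPM (counts divided by the TMM-scaled library total) in control replicates 1 to 4 and 46.7, 51.8, 158 and 87.2 CPM in HADA. Gbp8 had 175, 11.2, 11.0 and 88.9 CPM in control and 266, 119.6, 153 and 106 CPM in HADA. For both genes control replicate 1 lay within the HADA range. Smaller overlaps took part of the span of Usp18 (62.9%), Rtp4 (42.4%), Irf1 (37.6%) and Dhx58 (28.1%). Dhx58, a regulator of RNA sensing, had 0 to 27 counts and was not tested by edgeR. How reads shared by related genes (the Ifit, Oas, Gbp, Ifitm and Trim30 families) were treated is not given in the sources used here, so values within these families are uncertain.

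**Figure D1:**
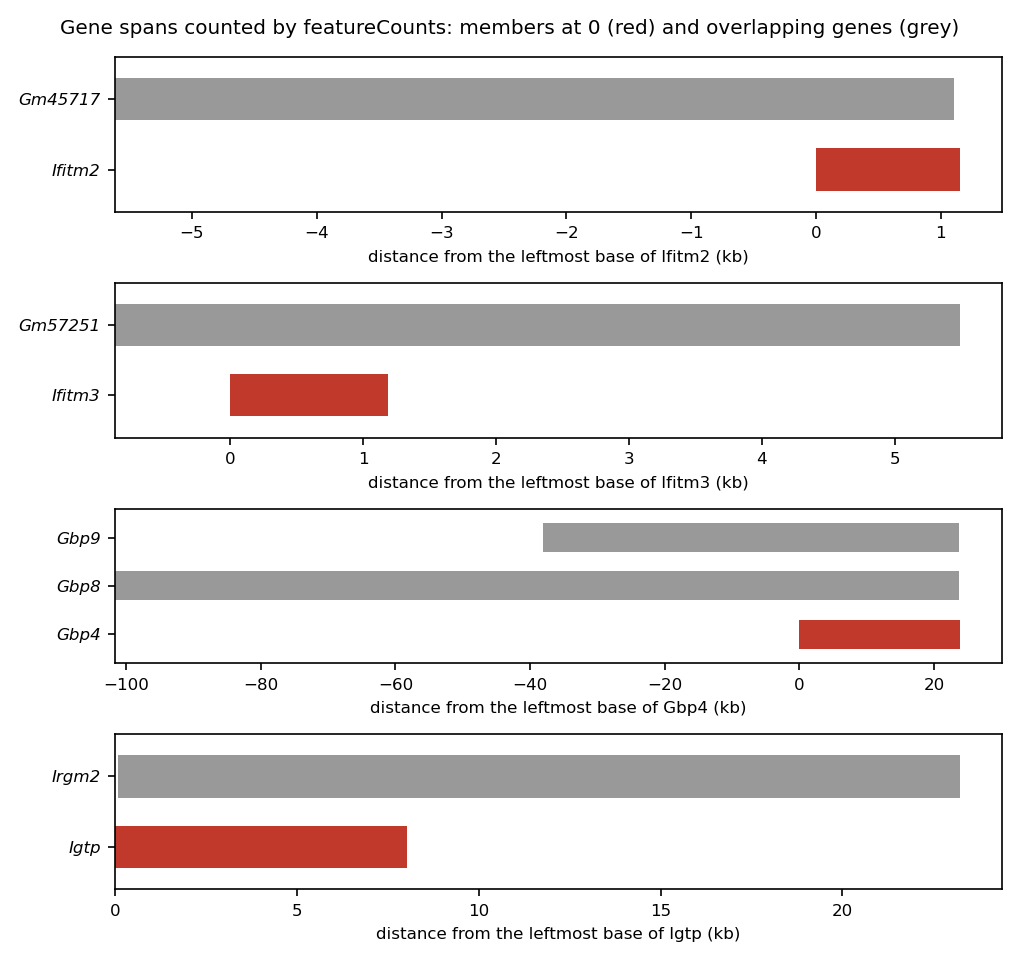
Gene spans of the 4 interferon-stimulated genes listed at 0 in every library (red) and of the genes that overlap them (grey), drawn to scale against the distance in kb from the leftmost base of the red gene. Grey spans cover 95.7% of Ifitm2, 100% of Ifitm3, 99.8% of Gbp4 and 99.2% of Igtp.

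Total counts ran from 22929193 to 28240337 in the HADA libraries and from 1477431 to 22584062 in the control libraries, with control replicate 1 the smallest. Values below are CPM as defined above, so a level of 1 library rests on at least 3 counts where it reaches 1.86 CPM in control replicate 1 and 0.0939 to 0.180 CPM in the others; these floors, and the intervals of shares, cover counting error only. Reads scattered over the genome were measured on 1255 olfactory and vomeronasal receptor genes, which T cells are not known to use. They came to 10.8 and 8.28 counts per kb in control replicates 2 and 3 and 3.51 in control replicate 4. In HADA they came to 2.03 to 5.41, and in control replicate 1, the smallest library, to 0.0789. Scaled to CPM per kb, they were 0.0490, 0.338, 0.289 and 0.204 in control replicates 1 to 4 and 0.122 to 0.214 in HADA. Fewer cells that express a gene and less RNA per cell cannot be told apart in such bulk libraries. The Treg label was checked on Foxp3 and Tnfrsf18, both at 0 because other genes cover 100% of their spans, on Il2ra (CD25) and on Cd4. Il2ra had 178, 10.5, 7.23 and 59.5 CPM in control replicates 1 to 4 and 163 to 748 CPM in HADA (log2 fold change 2.57, adjusted p = 0.156 in edgeR and 0.0469 in DESeq2). Cd4 had 199, 3.73, 4.79 and 220.2 CPM in control and 88.0 to 234 CPM in HADA (log2 fold change 0.63, adjusted p = 0.721 in edgeR). In control replicates 2 and 3 both sort markers were below the receptor-gene density, at 0.618 and 0.496 times for Il2ra and 0.469 and 0.703 times for Cd4. These 2 libraries thus did not show the labelled cells in their sort markers. Other T cell markers were above that density in both, with Cd3d at 28.3 and 46.8 times and Trac at 19.6 and 77.1 times. Ikzf2, also on the Treg list, was at 4.001 and 6.35 times. Its levels in control replicates 2 and 3 were 211 and 287 CPM, beside 224 to 737 CPM in HADA. In control replicate 3 Cd3e, Cd3g and Il2rb were at 69.6, 16.03 and 15.8 times and Ctla4 at 2.94 times. In control replicate 2 Cd3g was at 1.39 times, and Cd3e, Ctla4 and Il2rb were below the density, at 0.383, 0.521 and 0.214 times. The 11 Treg and CD4 T cell markers summed to 2431 to 8121 CPM in HADA and to 315 to 2200 in control, so that their ranges did not overlap. Of these markers 0 were called by edgeR, 4 had an unadjusted p below 0.05 and 4 were called higher by DESeq2. DESeq2 called 6.27% of all genes it tested higher.

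The comparison asks how interferon-stimulated genes differ between Tregs of HADA and control mice. Ifitm1 and Parp14 were higher in HADA Tregs, and none of the 32 genes tested was lower by edgeR's quasi-likelihood test, where a call needed a log2 fold change beyond 1 and a p below 0.05 after Benjamini-Hochberg adjustment over all genes tested. These 2 of 32 genes compare with 1.65% of all 21991 genes tested that were higher and 0.477% that were lower. Of the 32, 6 had an unadjusted p below 0.05. The share of all genes at that limit was not counted, so such counts, here and for other lists, are not read as an excess. Ifi27l2a and Trim30a also had all 4 HADA libraries above all 4 control libraries, which made 4 of 32 genes with the groups apart in that direction, beside 9.13% of all genes tested, and 0 in the other direction, beside 5.70%. The fitted log2 fold change was above 0 for 26 of the 32 genes, beside 50.2% of all genes tested. Its median over the 32 was 1.27, with a range from -2.90 to 8.48, and over all genes 0.01. Most lists of cell type markers were shifted the same way. Above 0 were 9 of 9 tested Treg and CD4 T cell markers, 10 of 11 myeloid and 6 of 6 B cell markers. So were 6 of 6 NK and CD8 T cell, 4 of 4 platelet and 3 of 5 plasmacytoid dendritic cell markers, but 0 of 5 erythroid markers. With the receptor-gene density subtracted, the median was 0.74 for the interferon-stimulated genes and 1.0 for all genes. DESeq2, which the study's methods name, called 5 genes higher, Ifitm1, Parp14, Ifi27l2a, Trim30a and Usp18 (6.27% of all genes it tested were higher), and 1 lower, Rsad2 (10.2% of all). Over the 32290 genes that DESeq2 tested, the log2 fold changes had a median of -0.81. It tested 32 interferon-stimulated genes, with Dhx58 and without Ifih1, and their median was 1.04. With only its size factors used in edgeR, the median of the 32 genes tested by edgeR was 1.16.

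Ifitm1 encodes a membrane protein that blocks the entry of enveloped viruses and lies at chr7:140547134-140549738 (ENSMUSG00000025491). Its counts were 6, 6, 6 and 3 in control replicates 1 to 4 and 4336, 5070, 5870 and 5474 in HADA replicates 1 to 4. In CPM these were 3.73, 0.188, 0.210 and 0.174 in control and 171, 212, 347 and 329 in HADA. All HADA libraries were alike to within 2.03-fold and stood far above control, where replicates 2 to 4 had less than the receptor genes per kb (0.213 to 0.328 times their density) and replicate 1, the shallow library, had 29.2 times that density on 6 counts. The mean was 265 ± 86.4 CPM in HADA and 1.07 ± 1.77 in control (SD, n = 4), and the log2 fold change was 8.48 ± 1.40 (SE; edgeR's quasi-likelihood test, adjusted p = 0.0128). DESeq2 gave 8.50 (adjusted p = 3.8e-16). The log2 fold change from edgeR was 10.54 without control replicate 1, whose 6 counts make most of the control mean, and 6.89 with every library thinned to the depth of that library. With control replicate 3 or control replicate 4 left out, the adjusted p of edgeR was 0.0629 and 0.0570.

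Parp14 encodes an ADP-ribosyltransferase that modifies proteins of the interferon and STAT6 pathways, at chr16:35653244-35691914 (ENSMUSG00000034422). Its levels were 98.8, 9.55, 6.88 and 48.5 CPM in control replicates 1 to 4 and 1651, 1482, 1306 and 1274 CPM in HADA. The HADA libraries differed from each other by 1.30-fold from lowest to highest, the narrowest spread of the 32 genes in that group, while the control libraries differed by 14.4-fold. The mean was 1428 ± 174 CPM in HADA and 40.9 ± 43.0 in control (SD, n = 4), a log2 fold change of 5.13 ± 0.99 (SE; edgeR's quasi-likelihood test, adjusted p = 0.0255). Leaving out any library other than control replicate 1 or 2 brought the edgeR adjusted p to between 0.0545 and 0.0893, and leaving out control replicate 1 gave 6.16 (adjusted p = 0.00781).

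Ifi27l2a, which encodes a small membrane protein induced by interferon, lies at chr12:103408426-103409939. It had 60.9, 0.250, 6.15 and 38.4 CPM in control and 418, 486, 390 and 509 CPM in HADA. Per kb of gene span, introns included, it had the highest level of the counted genes in HADA, at 298 CPM per kb beside 102 for Ifitm1 and 36.9 for Parp14. Spans differ in intron content, so this is not a measure of transcript abundance. In CPM its HADA mean of 451 was below those of Parp14 (1428), Trim30a (1259), Sp100 (737) and Samhd1 (704). The HADA libraries lay within 1.31-fold of each other and all above the highest control library, while control spread over 243-fold. The log2 fold change was 4.11 ± 1.24 (SE), which did not pass the threshold in edgeR (adjusted p = 0.0935) and passed it in DESeq2 (adjusted p = 0.00443) and in edgeR without control replicate 1 (adjusted p = 0.0346).

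Trim30a, a TRIM-family protein that restrains NF-kappaB signalling, lies at chr7:104058232-104114400. It had 441, 37.8, 190.1 and 293 CPM in control and 1945, 680.0, 1411 and 1002 CPM in HADA. The lowest HADA library was thus above the highest control library, and HADA replicate 1 was highest. The log2 fold change of 2.39 ± 0.80 (SE) gave an adjusted p of 0.115 in edgeR and 0.0203 in DESeq2. Parp14 and Trim30a supplied many of the counts, and together the interferon-stimulated genes took 0.491% to 0.621% of all counts in HADA and 0.411%, 0.0870%, 0.226% and 0.316% in control replicates 1 to 4 (95% Wilson interval for control replicate 1 from 0.401% to 0.421%). Without Parp14 and Trim30a the share was 0.298% to 0.365% in HADA and 0.352%, 0.0765%, 0.201% and 0.288% in control, so that the groups overlapped.

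**Figure D2:**
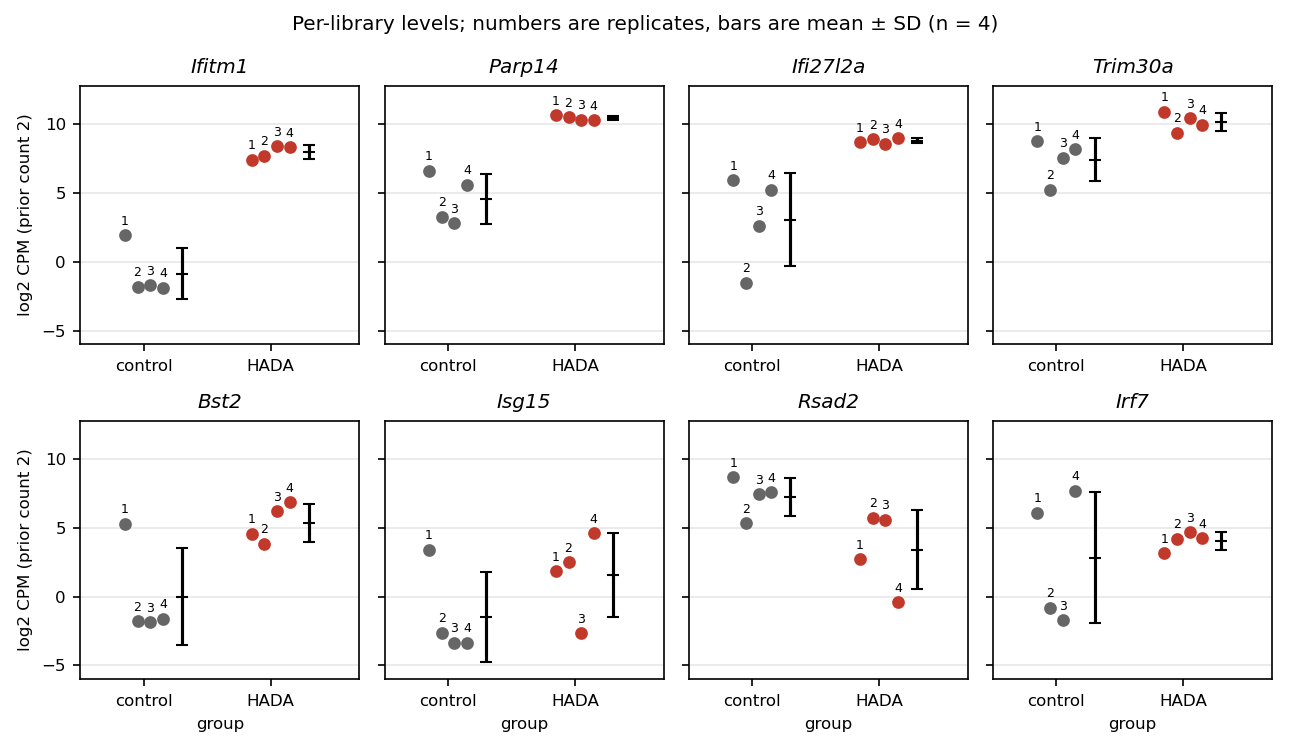
Log2 CPM (prior count 2) of 8 interferon-stimulated genes in each library, with points numbered by replicate and bars for the mean ± SD of 4 libraries. In Ifitm1, Parp14, Ifi27l2a and Trim30a all HADA points lie above all control points, and in Bst2, Isg15 and Ifitm1 control replicate 1 lies apart from the other control libraries.

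The factors of the pathway were not past the thresholds in either direction. Irf9, the DNA-binding partner of STAT2, had 137, 0.658, 112 and 56.3 CPM in control and 58.1, 146, 278 and 195 CPM in HADA (log2 fold change 1.15 ± 1.10 SE, edgeR adjusted p = 0.485). Irf1, which is induced by interferon-gamma and is counted on part of its span, had 186, 0.532, 114 and 1.51 CPM in control and 78.5, 169, 82.0 and 179 CPM in HADA (log2 fold change 0.76 ± 1.33 SE, edgeR adjusted p = 0.711). In Irf1 control libraries lay above and below the whole HADA range, and in Irf9 control replicates 2 and 4 lay below it. Irf7, the factor that amplifies type I interferon production, had 69.0, 0.470, 0.210 and 212 CPM in control and 8.76, 18.6, 25.6 and 18.8 CPM in HADA (log2 fold change -1.97 ± 1.52 SE, edgeR adjusted p = 0.386). The control libraries of Irf7 thus split to both sides of HADA, and the highest was 1011 times the lowest. Stat2, a factor of type I signalling, had 42.3, 2.10, 1.54 and 1.45 CPM in control and 26.4, 15.6, 29.1 and 12.7 CPM in HADA (log2 fold change 0.87 ± 1.14 SE, edgeR adjusted p = 0.615). Control replicates 2 to 4 were below every HADA library and control replicate 1 above, and without control replicate 1 the log2 fold change was 3.77 (edgeR adjusted p = 0.00715).

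None of the 3 IFIT genes was called. Ifit1 had 0.650 to 114 CPM in HADA and 0.908 to 183 in control (log2 fold change -0.26). Ifit2 had 53.0 to 274 CPM in HADA and 3.11 to 102 in control (2.09), and Ifit3 3.55 to 187 CPM in HADA and 1.39 to 47.2 in control (2.82; 5.95 without control replicate 1, edgeR adjusted p = 0.0187). Ifit1 and Ifit3 differed by 176-fold and 52.7-fold among the HADA libraries, and HADA replicate 3, lowest for Ifit1, had 134 CPM of Ifit3. In the oligoadenylate synthetase family, whose products activate the nuclease RNase L or sense RNA, Oas1a had 4.14 to 70.5 CPM in HADA and 1.91 to 87.7 in control (-0.25). Oasl1 had 0.481 to 27.4 CPM in HADA and 0.522 to 8.08 in control (2.42), and Oasl2 1.36 to 35.1 CPM in HADA and 1.99 to 229 in control (-2.44). For these 3 genes the groups overlapped. Of the ISG15 system, Isg15 encodes a ubiquitin-like modifier and had 17, 2, 0 and 0 counts in control replicates 1 to 4 and 90, 132, 1 and 413 counts in HADA. In CPM these were 10.6, 0.0626, 0 and 0 in control and 3.55, 5.53, 0.0591 and 24.8 in HADA, so that control replicate 1 stood above all HADA libraries but replicate 4 (log2 fold change 1.98, edgeR adjusted p = 0.496; adjusted p = 0.0215 without control replicate 1, on 2 control counts). HADA replicate 3 held 1 count, so that the modifier was near the floor in 4 of 8 libraries. Usp18, which removes ISG15 from proteins, had 0.419 to 55.4 CPM in HADA and 0.290 to 2.49 in control (3.93, edgeR adjusted p = 0.136; DESeq2 adjusted p = 0.0326). Its HADA level rested on replicates 3 and 4, at 12.6 and 55.4 CPM, since replicates 1 and 2 were at 0.473 and 0.419.

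The sensors and effectors differed in how even their levels were. Ifih1, the cytosolic sensor MDA5 of long double-stranded RNA, was even in HADA at 98.7 to 154 CPM and had 17.4, 16.7, 130.3 and 8.0 CPM in control (log2 fold change 1.60, edgeR adjusted p = 0.266). Zbp1, a sensor of Z-form nucleic acid, had 19.1 to 116 CPM in HADA and 1.40 to 33.2 in control (2.0). Bst2, or tetherin, which holds budding virions at the cell surface, had 23.9, 14.4, 73.5 and 118 CPM in HADA and 39.8, 0.188, 0.175 and 0.232 in control (2.56, edgeR adjusted p = 0.309), and without control replicate 1 the log2 fold change was 8.29 (edgeR adjusted p = 0.00543). Rsad2, or viperin, which makes a chain-terminating nucleotide, was the gene with the lowest log2 fold change, at -2.90 ± 1.20 (SE; edgeR adjusted p = 0.159; DESeq2 adjusted p = 0.0433). Rsad2 had 411, 40.7, 174 and 193 CPM in control and 6.55, 53.2, 48.8 and 0.661 CPM in HADA, so that HADA replicates 2 and 3 lay above control replicate 2. Samhd1, which degrades deoxynucleotides, was present in every library at 434 to 939 CPM in HADA and 113 to 619 in control (0.79). Mx1 (-0.24) and Rtp4 (1.11) overlapped between the groups as well. Among the interferon-induced GTPases, Gbp2, Gbp3, Gbp5, Gbp7 and Irgm1 had log2 fold changes from 0.02 for Gbp3 to 1.78 for Gbp5. None of them passed the threshold. Of the remaining genes, Xaf1 (1.95), Ifi44 (1.73), Ifi35 (0.78) and Sp100 (1.13) all had overlapping groups.

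**Figure D3:**
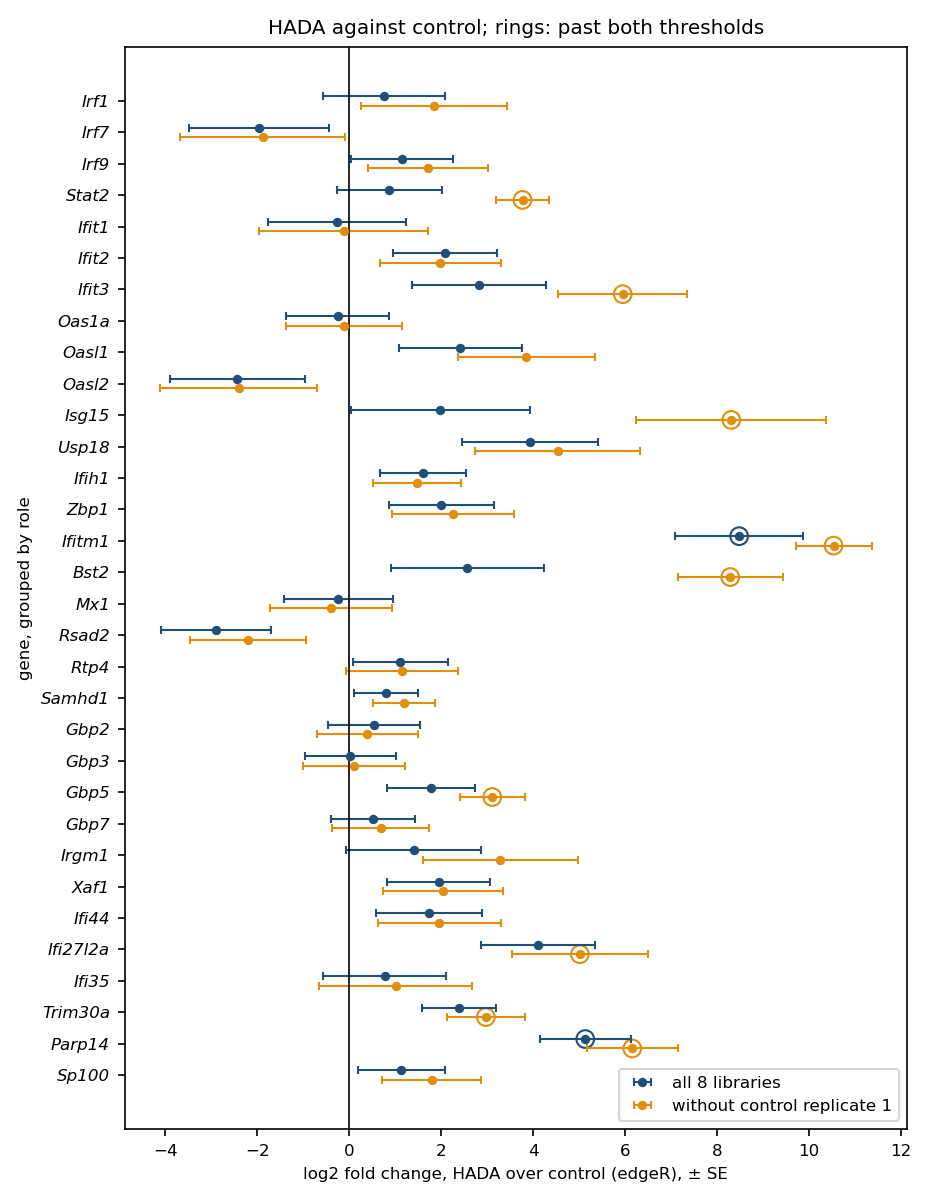
Log2 fold change of HADA over control from edgeR with its standard error (bars) for the 32 interferon-stimulated genes tested, with all 8 libraries (blue) and without control replicate 1 (orange). Rings mark genes past both thresholds, which are Ifitm1 and Parp14 with all libraries and 9 genes without control replicate 1; the orange value of Isg15 rests on 2 control counts and its size depends on the prior count.

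The control libraries were not alike in these genes. Within control the highest library was over 10 times the lowest for 28 of the 32 genes tested and over 100 times for 9, while within HADA it was over 10 times for 11 and over 100 times for 3. Isg15, whose lowest control level was 0 CPM, has no such ratio in control and is left out of the control counts. The median SD of log2 CPM over the 32 genes was 2.32 in control and 0.98 in HADA, and over all genes tested 1.58 and 0.72. Control replicate 1 was the highest control library for 17 of the 33 counted genes and control replicate 4 for 14, while control replicate 2 was lowest for 12 and control replicate 3 for 13. The median level was 47.2, 2.10, 3.11 and 53.0 CPM in control replicates 1 to 4, and 66.2, 36.0, 70.5 and 107 CPM in HADA. Control replicates 1 and 4 thus lay within the HADA range, and control replicates 2 and 3 lay below it.

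**Figure D4:**
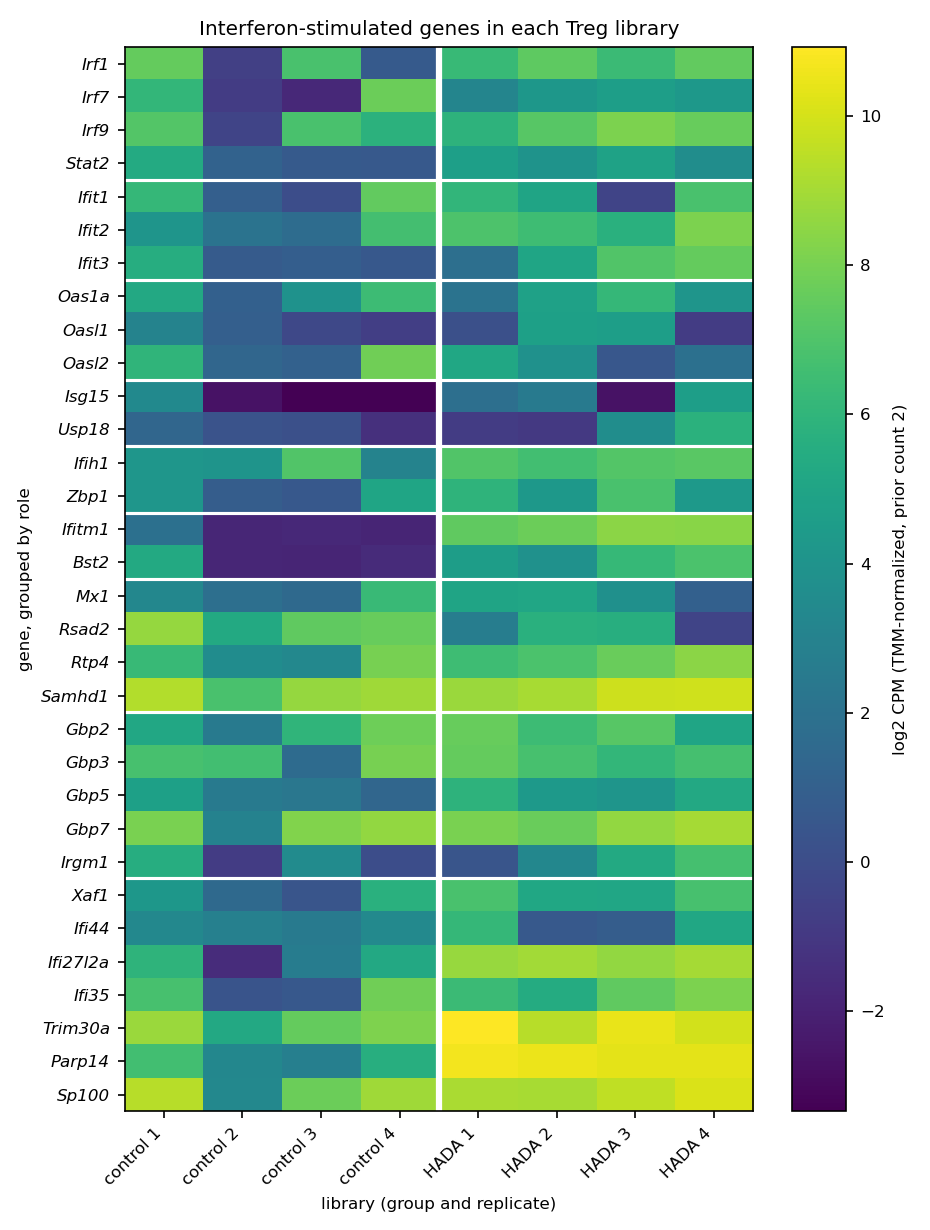
Log2 CPM (TMM-normalized, prior count 2; color scale) of the 32 tested interferon-stimulated genes, in rows grouped by role, in each of the 8 libraries in columns. Control replicates 2 and 3 are dark for most genes, with medians of 2.10 and 3.11 CPM, while control replicates 1 and 4 have medians of 47.2 and 53.0 CPM.

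A gene was counted as clearly detected in a library at 10 CPM or more and at 3 times the density of the receptor genes or more, limits chosen after the values were seen. Of the 33 counted genes, 24, 28, 27 and 28 were clearly detected in HADA replicates 1 to 4, and 27, 3, 11 and 20 in control replicates 1 to 4. In all 4 HADA libraries 20 genes were clearly detected, in all 4 control libraries 2, and in all 8 libraries only Samhd1. By the same limits, of the 10437 genes tested that were clearly detected in at least 1 library, 40.0% were so in all 4 HADA libraries, 5.91% in all 4 control libraries and 5.15% in all 8. Control replicates 1 to 4 held 73.5%, 8.34%, 23.7% and 37.6% of those genes and the HADA libraries 58.3% to 74.9%, so that control replicates 2 and 3 were low over all genes as well. In more HADA than control libraries 26 genes were clearly detected. In as many of both groups were 6, counting Dhx58, which was clearly detected in no library and is not among the 10437 genes. Rsad2 was detected in fewer, in 2 HADA libraries and 4 control libraries. Of the 10437 genes, 72.3% were in more HADA and 10.8% in fewer. In all 4 HADA libraries and at most 1 control library were Ifitm1, in no control library, and Stat2, Bst2 and Gbp5, in control replicate 1, beside 12.9% of the 10437 genes.

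**Figure D5:**
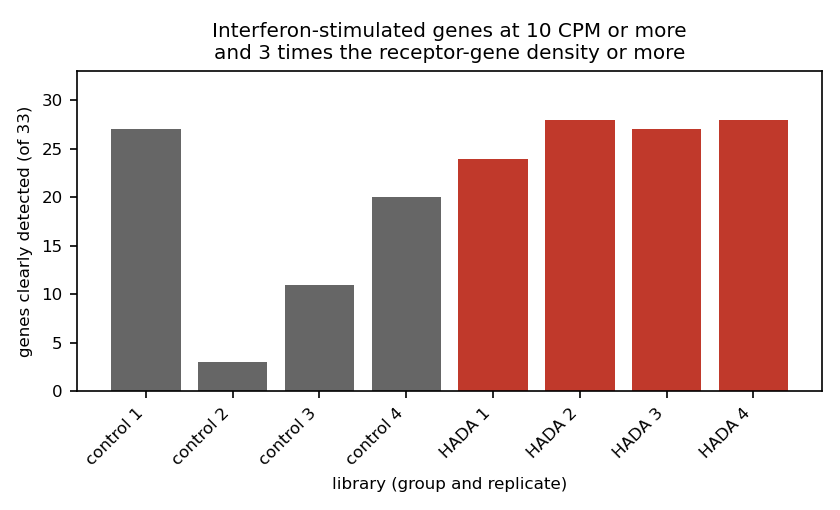
Number of the 33 counted interferon-stimulated genes at 10 CPM or more and at 3 times the receptor-gene density or more, as bars per library, control in grey and HADA in red. HADA libraries reach 24 to 28, and control replicates 1 to 4 reach 27, 3, 11 and 20.

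Without control replicate 1, edgeR called 9 interferon-stimulated genes higher and 0 lower, while the share of all genes called rose to 15.5% higher and 19.7% lower. The 9 were Ifitm1, Parp14, Ifi27l2a, Trim30a, Stat2, Ifit3, Isg15, Bst2 and Gbp5, the last with a log2 fold change of 3.11 (edgeR adjusted p = 0.0173). Against control replicates 2 to 4 alone, 9 genes had all HADA libraries above control, beside 18.4% of all genes tested, and 0 had all below, beside 26.6%. With the receptor-gene density subtracted from each count, none was called higher, beside 1.12% of all genes. Ifitm1 then had a log2 fold change of 8.23 (edgeR adjusted p = 0.102) and Parp14 of 5.34 (edgeR adjusted p = 0.175), and the median of all genes moved to 1.0, above the 0.74 of the interferon-stimulated genes still tested.

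Genes upstream of the response were taken from a list of 16 receptor and JAK-STAT genes, of which 15 were tested. By edgeR 0 were called in either direction and 0 had an unadjusted p below 0.05, DESeq2 called 0, and the median log2 fold change was 1.02. Without control replicate 1 edgeR called 3 higher, Ifnar2, Socs1 and Ptpn2, and 0 lower, beside 15.5% and 19.7% of all genes. Ifnar1, a chain of the type I interferon receptor, had 94.5, 69.1, 46.3 and 83.9 CPM in HADA and 111, 3.04, 28.5 and 2.84 CPM in control (log2 fold change 1.02, edgeR adjusted p = 0.533). Ifnar2, the other chain, had 3.91 to 20.7 CPM in HADA and 1.80 to 13.7 in control (1.36), on the part of its span that is not covered. The chains of the interferon-gamma receptor were Ifngr1, with 283 to 814 CPM in HADA and 3.98 to 471 in control (1.35), and Ifngr2, with 91.2 to 140.2 CPM in HADA and 6.54 to 195 in control (0.12). These genes were thus counted in both groups, and control replicate 2 had at most 6.54 CPM of any of the 4. Of 17 sensors and inducers of interferon, such as Cgas, Sting1 and Irf3, 15 were tested, 0 were called by edgeR or DESeq2, 0 had an unadjusted p below 0.05 in edgeR, and the median was 0.80. Without control replicate 1 edgeR tested 16 and called 3 higher, Irf3, Irf5 and Irf8, and 0 lower, beside 15.5% and 19.7% of all genes. None of the 21 interferon genes themselves had enough counts to be tested by edgeR. DESeq2 tested 11 of them and called Ifna15 lower in HADA (adjusted p = 0.0244), a gene with 0 counts in every HADA library and 0, 8, 7 and 8 counts in control replicates 1 to 4. Scattered reads on the receptor genes alone came to 10.8, 8.28 and 3.51 counts per kb in control replicates 2 to 4 and 2.03 to 5.41 in HADA. Whether the Ifna15 counts exceed such reads was not tested, so they are not read as expression.

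Markers of other blood cells were measured in the same libraries. The 12 myeloid markers summed to 1796 to 4607 CPM in HADA and 58.7 to 2100 in control, with 0 called by edgeR, 3 at an unadjusted p below 0.05, 3 called higher by DESeq2 and 3 with the groups apart. The 8 NK and CD8 T cell markers summed to 70 to 970.4 CPM in HADA and 6.95 to 43.7 in control, with 1 called higher by edgeR (Cd8b1) and 5 by DESeq2. The 6 platelet markers summed to 268 to 1663 CPM in HADA and 43.0 to 470 in control, with 0 called by edgeR, 2 at an unadjusted p below 0.05 and 3 called higher by DESeq2. The 7 B cell markers ran from 2320 to 7415 CPM in HADA and from 254 to 6099 in control, with 0 called by edgeR or DESeq2 and 0 at an unadjusted p below 0.05, and the defining marker Ms4a1 is at 0 under an overlap. The 7 markers of plasmacytoid dendritic cells, a main source of type I interferon, summed to 274 to 337 CPM in HADA and 102 to 311 in control, with Siglech at or under 2.13 CPM in every library Cox6a2 at 0 under an overlap, 0 called by edgeR or DESeq2 and 0 at an unadjusted p below 0.05. The 6 erythroid markers went the other way, at 145 to 2806 CPM in HADA and 1025 to 28314 in control, with 0 called by edgeR, 5 at an unadjusted p below 0.05, 4 called lower by DESeq2 and Alas2 at 0 under an overlap. The ranges of the groups overlapped for all of these lists but the NK and CD8 T cell markers. The part of these cells in the levels of the interferon-stimulated genes was not tested.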

How the data were processed

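RNA-seq was done on sorted Tregs of peripheral blood, 4 HADA and 4 control libraries, grouped by their labels. FastQC, Trimmomatic, STAR (mouse genome GRCm39) and featureCounts were the tools with which the authors made the deposited table of raw counts for 56980 genes, without normalization; tool versions, strand and multimapping settings are not given in the sources used here. Total counts were 1477431 to 28240337, and the smallest total limits what control replicate 1 can show. For 98.7% of the identifiers a name was found in GENCODE vM39, and 100% of the counted lengths equal the gene span. Names, members and gene lists were chosen with earlier results of these data known.

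Genes were tested with edgeR 4.0.16 (TMM, filterByExpr, quasi-likelihood test, R 4.3.3) on 21991 genes, without covariates; the common dispersion was 0.805. Calls used the limits of the study's methods, a log2 fold change beyond 1 and a Benjamini-Hochberg adjusted p under 0.05. DESeq2 1.42.0 was run as an alternative, since the study used it. Log2 CPM had a prior count of 2. The steps were tested on simulated data. Other alternatives were to use DESeq2's size factors, to drop the filter or ask for at least 10 counts per library, to thin all libraries to the smallest total, to subtract the receptor-gene density, to drop the fold threshold, to block on replicate number, and to leave out each library in turn. Values in every library were given for genes called by edgeR or, with the groups apart, by DESeq2, for Irf1, Irf7, Irf9 and Stat2 and for genes covered over 90% of their span or more; others by range, and those given in full beyond this rule (Isg15, Usp18, Bst2, Rsad2, Ifih1, Ifnar1) were chosen after their values were seen. Promoters were read with Python 3.11.15 from the GRCm39 genome at the start of the GENCODE canonical transcript.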

Additional observations from a re-analysis of the deposited data

Results flagged for a closer look

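In 6 of 64 pairs of a gene and a group of 4 libraries, 1 library lay apart from the other 3 on the log2 CPM scale by Dixon's criterion, where chance alone flags about 1 in 20 groups, here 3.2. Of these, 5 were in control replicate 1, which had the smallest total. There Stat2 had a log2 CPM of 5.40 (68 counts), with the other control libraries at 0.63 to 1.14, and Ifit3 had 5.56 (76 counts), with the others at 0.57 to 0.94. Bst2 had 5.32 (64 counts), with the others at -1.87 to -1.60. Isg15 had 3.41 on 17 counts, with the others at -3.34 to -2.63, and Ifitm1 had 1.94 on 6 counts, with the others at -1.88 to -1.70. The remaining library was control replicate 2, in which Gbp7 had 3.01 (254 counts), with the other control libraries at 8.06 to 8.63. Control replicate 1 was thus the high library for 5 genes and control replicate 2 the low library for Gbp7, and no HADA library lay apart. The cause was not tested.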

How the results depend on the processing

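The count of interferon-stimulated genes higher in HADA, 2, was 5 with DESeq2's test and 0 with the receptor-gene density subtracted. With at least 10 counts in every library it was 1, since Ifitm1, at 3 to 6 counts in control, did not pass that filter. When each library was left out in turn it ran from 0 to 9. The 9 came without control replicate 1 and the 0 without control replicate 3 or 4. It was 2 with DESeq2's size factors, without a filter, and without a fold threshold, and 3 with libraries drawn down. The count of genes lower in HADA was 1 with DESeq2's test and 0 under every other alternative. The median log2 fold change, 1.27, ran from 0.86 to 1.90 with libraries left out, was 0.53 drawn down, 0.56 with at least 10 counts in every library and 2.10 with the replicate block, and stayed above 0. The fit with the replicate block gave 2 genes higher; same-numbered libraries correlated at -0.207, 0.252, -0.0805 and -0.0032 in their deviations from the group means, 2 of 8 libraries correlated best with their own number, and the numbers were not taken to pair them.

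The sign of the log2 fold change was reversed in 23 gene-by-setting cases, none of a gene called by edgeR or DESeq2 with all libraries. With the replicate block it was 1.28 for Irf7, 0.46 for Ifit1, 0.064 for Oas1a and 1.41 for Mx1. With libraries left out it ran from -0.87 to 1.20 for Ifit1, from -1.03 to 0.76 for Oas1a, from -0.61 to 2.06 for Mx1 and from -0.40 to 0.84 for Gbp3. Gbp3, at 0.02 with all libraries, was at -0.14 with DESeq2's size factors, -0.12 with its test, -0.61 with at least 10 counts in every library, -0.72 drawn down and -0.93 with background subtracted. Gbp7 was at -0.10, -0.15 and -0.10 under at least 10 counts, drawing down and subtraction, and Samhd1 at -0.033 under subtraction. The cause was not tested. Depth limits control replicate 1, where 3 counts are 1.86 CPM.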

Other observations

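A further 90 genes known to be induced by interferon gave a wider view, of which 81 were tested and 9 lay under other genes at 0 in every library. By edgeR 0 were called in either direction, 10 had an unadjusted p below 0.05, and DESeq2 called 5 higher and 2 lower of 78, beside 6.27% and 10.2% of all genes it tested. Without control replicate 1 edgeR called 13 higher and 2 lower, beside 15.5% and 19.7% of all genes. The median log2 fold change was 0.86, with 58 above 0 and 23 below. For 9 of the 81 genes the lowest HADA library was above the highest control library, beside 9.13% of all genes tested, a share near the background, and they are named here after their values were seen. They were Ms4a4b and Ms4a6b, of a family of membrane proteins in lymphocytes, the surface protein Ly6a (Sca-1), the immunoproteasome genes Psmb9 and Psme2, and Trim12c, Helz2, Cmpk2 and Pnpt1. Ms4a4b had 3123, 2142, 3843 and 5029 CPM in HADA and 1217, 13.8, 192 and 797 in control, with a log2 fold change of 2.67 ± 1.02 (SE; edgeR's quasi-likelihood test, adjusted p = 0.139). Ly6a had 391, 391.6, 597 and 399.6 CPM in HADA and 213, 0.532, 1.01 and 93.6 in control (edgeR, adjusted p = 0.244). In both genes control replicates 1 and 4 were the control libraries nearest to HADA. Helz2, a coactivator of nuclear receptors, had 88.7 ± 7.12 CPM in HADA and 32.0 ± 36.9 in control (SD, n = 4). Ifi205, of the DNA-binding p200 family, was the gene with all HADA libraries below control, at 1.0 to 1.51 CPM against 2.49 to 10.9 (log2 fold change -2.15, edgeR, adjusted p = 0.0981).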
